A study of Homo sapiens with 6 samples.

Results

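The constructs described here carried 2 non-targeting guide RNAs and no guide against a gene. They were found by name: the name of each construct was split into its 2 guides, and a construct was kept where both guides were named nt_ followed by a number. By this rule 880 of the 865566 listed guide pairs were members, which is 0.102%. Reads in at least 1 of the 6 libraries were present for 878 of them, and for 863546 guide pairs in all.

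The study was a dual-guide knockout screen in eHAP cells, a human near-haploid line. All 6 libraries came from the clone iCas9-cl#6, which lacks p53 and carries Cas9 under control of doxycycline, so all groups share 1 clone and 1 genotype. Cells were transduced at a multiplicity of infection of 0.15, and 3 groups of 2 replicates were compared. Day 0 is the reference. Both later groups received doxycycline at 1 µg/mL for 7 days, then grew without it, and were split every 3 days. The day 14 group reached 12 population doublings under standard conditions. The irradiated group was also exposed to 0.6 Gy 24 hours after each split, and was collected at day 15 after 10 doublings. The labels call this dose an LD20 in the protocol and an LD30 in the design text. The labels do not say that replicates came from separate cultures, so p-values measure only the spread between these libraries.

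A non-targeting guide is designed to match no site in the genome, so Cas9 loaded with it is not directed to a cut. A construct with 2 such guides marks cells that go through transduction, drug selection, passaging and PCR like all others, and its count follows those steps without a knockout. Screens use such constructs as the null: the spread of their counts shows how far a construct can move when no gene is hit. The lack of p53 matters in such screens because p53 halts cells with DNA breaks, and cells without it do not show that arrest. The guide sequences were not used here, so guides are given by name only.

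The members formed a grid. Guides nt_1 to nt_25 were read at position 1 of the construct and guides nt_27 to nt_62 at position 2, and 0 guides were read at both. These 25 and 36 guides allow 900 combinations, of which 22 had no reads in the 6 libraries. The gaps lay on few guides. At position 2, nt_35 accounted for 9 of them and nt_40 for 8, nt_43 for 2, and nt_34, nt_36 and nt_47 for 1 each. At position 1 no guide accounted for more than 2. As 2 of the 22 combinations were listed in the tables, 20 were not listed. Reads in all 6 libraries were found for 172 members, and 47 members had reads in 1 library only.

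Total depth ran from 61185707 to 86587125 reads per library. Members took 0.0615% and 0.0626% of the reads in day 0 replicates 1 and 2, 0.0546% and 0.0622% at day 14, and 0.0627% and 0.0600% after irradiation. As a sum the members were therefore close in all libraries, and day 14 replicate 1 was the lowest. In read counts these shares were 51867 and 54183 at day 0, 33836 and 38087 at day 14, and 44825 and 51916 after irradiation. The Wilson 95% interval of the lowest share was 0.0540 to 0.0552%, and that of its replicate 0.0616 to 0.0629%. Such intervals cover counting error only, because PCR reads without molecular identifiers are not independent molecules.

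Counts per construct were low and uneven. At day 0 the median member had 35 reads in replicate 1 and 38.5 in replicate 2. At day 14 the medians were 0 and 24 reads, and after irradiation 26 and 0. The libraries with a median of 0, day 14 replicate 1 and irradiated replicate 2, are called sparse below, and the other 4 complete. The members started below the double knockouts: the mean day 0 count was 59.1 and 61.7 reads for the non-targeting constructs against 99.3 and 101.7 for guide pairs of 2 genes.

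Of the 878 members, 92 (10.5%) had 0 reads in day 0 replicate 1 and 27 (3.08%) in replicate 2. At day 14 the number was 612 (69.7%, Wilson 95% interval 66.6 to 72.7%) in replicate 1 and 111 (12.6%, 10.6 to 15.0%) in replicate 2. After irradiation it was 141 (16.1%, 13.8 to 18.6%) in replicate 1 and 585 (66.6%, 63.4 to 69.7%) in replicate 2. The intervals of replicates did not overlap within either later group, while each sparse library lay near the sparse library of the other group. Such intervals treat constructs that share guides within 1 library as independent, so differences between libraries were not tested. The corresponding shares of guide pairs of 2 genes were lower in each library, with 4.57% and 1.90% at day 0, 53.6% and 5.42% at day 14, and 7.38% and 48.9% after irradiation.

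In the sparse libraries fewer members held more reads each. Among members with reads, the median count was 68 in day 14 replicate 1 and 116 in irradiated replicate 2, against 32 in day 14 replicate 2 and 36 in irradiated replicate 1. Members with 100 or more reads numbered 109 and 153 in the sparse libraries and 105 and 137 in their replicates. Reads were concentrated accordingly: 50% of the member reads lay in 37 members in day 14 replicate 1 and in 47 members in irradiated replicate 2, whereas it took 129 and 112 in their replicates, and 137 and 147 at day 0. The 10 highest members took 21.3% and 15.6% of member reads in the sparse libraries, and between 7.17% and 9.19% in the complete ones. Day 14 replicate 1 also held many traces: 83 of its 266 members with reads (31.2%) had 1 to 3 reads, against 9 of 293 (3.07%) in irradiated replicate 2.

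The highest construct of each library shows how single members behaved. Construct nt_21;nt_58, the highest of day 0 replicate 1, had 618 and 325 reads at day 0, 20 and 302 at day 14, and 206 and 314 after irradiation. It stayed above 200 reads everywhere except in day 14 replicate 1. Construct nt_16;nt_50 led day 0 replicate 2 and had 230 and 466 reads at day 0, 305 and 329 at day 14, and 456 and 292 after irradiation. Its groups overlapped, and no library stood far from the others. Construct nt_2;nt_42 led day 14 replicate 1, with 59 and 161 reads at day 0, 1121 and 84 at day 14, and 154 and 921 after irradiation. Both sparse libraries were high for it and the other 4 low. Construct nt_12;nt_50, the highest of day 14 replicate 2, had 57 and 251 reads at day 0, 1 and 395 at day 14, and 95 and 709 after irradiation. Its replicates differed widely in each of the 3 groups. Construct nt_21;nt_62 led irradiated replicate 1 and had the highest day 0 mean of all members, 497.5 reads: it had 563 and 432 at day 0, 247 and 378 at day 14, and 619 and 294 after irradiation. Construct nt_9;nt_29 led irradiated replicate 2, with 408 and 346 reads at day 0, 184 and 201 at day 14, and 255 and 951 after irradiation. The other construct among the 3 highest day 0 means, nt_21;nt_29, had 466 and 427 reads at day 0, 294 and 252 at day 14, and 215 and 837 after irradiation. The last 2 constructs share guide nt_29 and both were highest in irradiated replicate 2. Summed over its partners, nt_29 was not higher there than at day 0, with 6.87% of member reads against 8.28% and 7.47%.

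How often a member was missing followed its level at day 0. In day 14 replicate 1, 88.5% of the 131 members with a day 0 mean of 10 to 20 reads had none, 75.9% of the 261 members with 20 to 50, 59.4% of the 212 with 50 to 100, 44.7% of the 114 with 100 to 200, and 13.5% of the 37 with 200 or more. Irradiated replicate 2 gave 80.9, 74.0, 59.4, 39.5 and 8.11% over the same ranges. In the complete later libraries members with a day 0 mean of 100 reads or more were all present. Guide pairs of 2 genes at 100 to 200 reads were missing in 34.6% and 29.6% of cases in the sparse libraries, below the members at the same level, and at 200 or more in 12.0% and 9.06%.

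A stricter set shows the null rate of loss for well represented constructs. At least 100 reads in both day 0 libraries were present for 105 members. Of these, day 14 replicate 1 lacked 35 (33.3%, Wilson 95% interval 25.1 to 42.8%) and irradiated replicate 2 lacked 29 (27.6%, 19.97 to 36.9%), and 15 (14.3%) were missing from both. In day 14 replicate 2 and irradiated replicate 1 it was 0 of 105. A count of 0 is taken here to allow 3 constructs, a share of up to 2.86%, and the Wilson upper limit was 3.53%. Guide pairs of 2 genes with at least 100 reads in both day 0 libraries were missing in 22.5% and 18.4% of 210493 cases. This cut did not match day 0 levels. A day 0 mean of 200 reads or more was reached by 12.0% of all gene pairs and 4.21% of all members. Constructs that paired a gene guide at position 1 with a non-targeting guide were missing in 23.2% and 19.1% of 5848 cases. With the non-targeting guide at position 1 and a gene guide at position 2 it was 25.8% and 20.7% of 3953 constructs, which lies within the intervals of the members. In the sparse libraries 0 reads after 100 or more at day 0 was thus a common outcome for constructs without any targeted gene. The intervals treat constructs that share guides within 1 library as independent, so the difference between members and gene pairs was not tested.

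The sparse libraries shared many of the members they kept. Day 14 replicate 1 held reads of 266 members and irradiated replicate 2 of 293, and 182 were in both, 68.4% of the first list and 62.1% of the second. For guide pairs of 2 genes these overlaps were larger, at 79.1% and 71.95%. Of those pairs 46.5% and 51.1% had reads in these libraries, against 30.3% and 33.4% of the members. Of the members absent from irradiated replicate 2, 14.4% had reads in day 14 replicate 1. In the reverse direction 18.1% of those absent from day 14 replicate 1 had reads in irradiated replicate 2, and 501 members were absent from both. Of the members kept in the sparse libraries, 266 of 266 and 292 of 293 had reads in day 0 replicate 2, where 96.9% of all members had reads. In day 0 replicate 1 it was 259 and 283 of them, beside 89.5% of all members. Since a higher day 0 level also goes with presence in both, the part of that level in the overlap was not tested.

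Spread between libraries was measured over the 689 members with a mean count of at least 10 over the 6 libraries, and 189 members did not pass this filter. Values were log2 CPM (reads scaled to a common library total) with a prior count of 2. The libraries closest to each other were not replicates. The log2 difference between day 14 replicate 2 and day 0 replicate 2 had an SD of 1.08 over members, that between irradiated replicate 1 and day 0 replicate 2 an SD of 1.26, and that between irradiated replicate 1 and day 14 replicate 2 an SD of 1.35. The day 0 replicates differed with an SD of 1.44. Differences that involve a sparse library had SDs from 2.63 to 3.10, the lowest being that between the sparse libraries. Guide pairs of 2 genes gave 0.85, 1.08 and 1.13 for the first 3 and 1.13 for the day 0 replicates.

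Correlations ranked the library pairs in another order. Over the 689 members, Pearson's r of the log2 values was 0.75 between day 0 replicate 2 and day 14 replicate 2, 0.51 between the day 0 replicates, 0.58 between the sparse libraries, 0.23 for the pair of day 14 libraries and 0.20 for the irradiated pair. The sparse libraries thus ranked above the day 0 replicates by correlation and below them by SD. These members share guides, and each library's values share its depth, so the coefficients are a description.

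The width of this null can be read as a range. From day 0 replicate 2 to day 14 replicate 2, 95% of members changed by between -2.86 and 1.63 on the log2 scale, with a median of -0.09. To irradiated replicate 1 the range was -3.27 to 1.79, with a median of -0.17. Between the day 0 replicates, where no time passed, it was -3.81 to 2.60 for replicate 1 against replicate 2. The day 0 replicates thus differed more from each other than replicate 2 did from either complete later library, and from day 0 replicate 1 to day 14 replicate 2 the range was -4.17 to 3.72. Into the sparse libraries the range was -6.15 to 3.56 at day 14 and -6.13 to 3.55 after irradiation.

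The width depended on the starting count. For day 14 replicate 2 against day 0 replicate 2, the SD of the log2 change was 1.48 for the 131 members with a day 0 mean of 10 to 20 reads, 1.29 for 20 to 50, 0.98 for 50 to 100, 0.58 for 100 to 200 and 0.45 for the 37 members with 200 or more. For irradiated replicate 1 against day 0 replicate 2 the values were 1.59, 1.45, 1.16, 0.63 and 0.59. For guide pairs of 2 genes the SDs at 100 to 200 reads and at 200 or more were 0.60 and 0.42 in the day 14 comparison. These were close to those of the members. In the irradiated comparison they were 0.78 and 0.55, so at 100 to 200 reads the gene pairs were wider than the members. At lower counts in the day 14 comparison they were narrower than the members, with 1.35, 1.145 and 0.84 for 10 to 20, 20 to 50 and 50 to 100 reads.

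Knockout constructs had SDs close to those of this null in the group means. For day 14 against day 0, with both replicates averaged on the log2 scale, the members had a median change of -1.80 and an SD of 1.57, and guide pairs of 2 genes a median of -1.68 and an SD of 1.57. For irradiated day 15 against day 0 the medians were -1.49 and -1.09 and the SDs 1.59 and 1.55, and for irradiated day 15 against day 14 the medians were 0.05 and 0.05 and the SDs 1.45 and 1.42. The medians below 0 in the first comparisons are those of averages that include a sparse library: without day 14 replicate 1 the first was -0.02 and without irradiated replicate 2 the second was -0.10 for the members. Leaving out a library also turned the sign of the third, which was -1.27 without day 14 replicate 1 and 1.53 without irradiated replicate 2. By construction 2.61% of the members lie beyond each limit of their own range. Of the guide pairs of 2 genes, 1.67% lay below the lower and 1.78% above the upper limit for day 14 against day 0. For irradiated day 15 against day 0 it was 2.17% and 1.72%, and for irradiated day 15 against day 14 2.38% and 2.99%. Between day 0 replicate 2 and day 14 replicate 2, 1.06% lay below the lower and 1.18% above the upper limit. Against the same day 0 library, 4.11% lay below the lower limit in day 14 replicate 1 and 3.06% in irradiated replicate 2. The gene pairs thus exceeded 2.61% above the upper limit of the third comparison and below the lower limit in the sparse libraries. These limits were not matched for day 0 level, which was lower in the members. The part of that level in these shares was not tested.

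No member was called. All 766617 constructs with a mean of at least 10 reads were tested together by edgeR's quasi-likelihood method, and a call needed a Benjamini-Hochberg adjusted p under 0.05. For day 14 against day 0 it called 0 of 689 members, beside 0% of all constructs, with 4 members and 6292 constructs at an unadjusted p under 0.05. The same test of irradiated day 15 against day 0 called 0 members, beside 0% of all, with 1 member and 3877 constructs under 0.05. Between irradiated day 15 and day 14 it called 0 members, beside 0% of all, with 3 members and 3580 constructs under 0.05. By limma-trend on log2 CPM, 0 members were called in each comparison, with 26, 25 and 10 at an unadjusted p under 0.05. Over all 766617 constructs it called 13, 10 and 9, with 22934, 16010 and 18071 under 0.05. The biological coefficient of variation was 1.49, and the median 95% half-width of a member's log2 change 6.69, 6.72 and 6.70 in the order given. Without both sparse libraries the median half-widths were 2.13, 2.12 and 2.41, and edgeR called 0 members, beside 0, 21 and 3 of the 766617 constructs. At an unadjusted p under 0.05 this fit had 44, 73 and 48 members and 31373, 73754 and 40841 constructs.

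The members nearest to a call were those with reads in few libraries or with a high count in a sparse one. For day 14 against day 0 the smallest p of the members that were higher belonged to nt_2;nt_42, with the counts given above and a log2 change of 2.92 (SE 1.13, 95% interval 0.49 to 5.36; edgeR adjusted p = 1). Next was nt_22;nt_29, with 124 and 211 reads at day 0, 999 and 115 at day 14, and 161 and 170 after irradiation. Its change was 2.20 (SE 0.97, 95% interval 0.19 to 4.22; edgeR adjusted p = 1). It was high in day 14 replicate 1 only: scaled to depth it stood at 16.1 CPM there and at 1.88 CPM in replicate 2, between the day 0 values of 1.47 and 2.44 CPM. On the lower side, nt_1;nt_36 had 121 and 42 reads at day 0, 0 and 0 at day 14, and 3 and 0 after irradiation. Against the 3 reads over the group that a count of 0 allows, it was at least 39.1-fold lower at day 14 (edgeR adjusted p = 1). Construct nt_21;nt_45 had 47 and 44 reads at day 0, 0 and 0 at day 14, and 5 and 0 after irradiation, at least 21.8-fold lower at day 14 (edgeR adjusted p = 1). Both were absent or nearly so from all 4 later libraries, the complete ones included.

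In the comparison of irradiated day 15 with day 0, construct nt_6;nt_27 had 21 and 22 reads at day 0, 164 and 7 at day 14, and 17 and 685 after irradiation. Its log2 change was 4.01 (SE 1.91, 95% interval 0.02 to 8.00; edgeR adjusted p = 1), and its replicates lay on both sides of the day 0 values. The change of nt_2;nt_42 was 2.32 (SE 1.11, 95% interval -0.06 to 4.70). Construct nt_9;nt_36 had 47 and 33 reads at day 0, 0 and 1 at day 14, and 0 and 0 after irradiation, at least 24.7-fold lower. Construct nt_5;nt_56 had 100 and 7 reads at day 0, 0 and 1 at day 14, and 0 and 0 after irradiation, at least 33.0-fold lower. These 2 constructs without a targeted gene ended at 0 or 1 read in all 4 later libraries. Like nt_1;nt_36 and nt_21;nt_45, they passed the mean count of 10 only through their day 0 reads, so the filter fixed their direction.

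Between irradiated day 15 and day 14, construct nt_23;nt_49 had 9 and 4 reads at day 0, 409 and 0 at day 14, and 0 and 0 after irradiation. It was at least 175-fold lower after irradiation (edgeR adjusted p = 1), a value that rests on 1 library: the other 5 held 13 reads in all. The other construct on that side was nt_22;nt_29, with a log2 change of -2.09 (SE 0.96, 95% interval -4.10 to -0.09). On the higher side, nt_10;nt_34 had 62 and 3 reads at day 0, 0 and 0 at day 14, and 0 and 225 after irradiation, at least 58.4-fold higher. Construct nt_17;nt_28 had 1 and 10 reads at day 0, 0 and 0 at day 14, and 0 and 103 after irradiation, at least 26.7-fold higher. Each of these 4 constructs was high in 1 sparse library. For nt_23;nt_49, nt_10;nt_34 and nt_17;nt_28 the complete library of the same group had 0 reads, while for nt_22;nt_29 it had 115. Constructs nt_23;nt_49 and nt_17;nt_28, the latter with 11 reads in its other 5 libraries, passed the mean count of 10 only through that library, so their fold was fixed by the filter and is a description.

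Calls appeared among the members when a complete library was left out and a sparse one stood alone for its group. Without irradiated replicate 1, edgeR called 2 members for irradiated day 15 against day 0 and the same 2 for irradiated day 15 against day 14, beside 5883 and 2770 of the 766617 constructs. They were nt_16;nt_60, with 271 and 319 reads at day 0, 145 and 213 at day 14, and 167 and 0 after irradiation (edgeR adjusted p = 0.00921 and 0.0176), and nt_16;nt_62, with 316 and 428 reads at day 0, 3 and 246 at day 14, and 436 and 0 after irradiation (edgeR adjusted p = 0.00696 and 0.0262). Both had been among the better covered constructs, were at 0 in irradiated replicate 2 and were kept in irradiated replicate 1. Without day 14 replicate 2, guide nt_4 at position 1 was called at day 14 against day 0, with a log2 change of -2.12 (edgeR adjusted p = 0.0466), among 28 of 1833 guides tested as sums. These calls fell on constructs and a guide with no targeted gene. In the same fits calls were about as frequent or more frequent over all constructs and guides, so they are not particular to the members.

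Whether a member's change repeated was read from changes that share no library. Over the 689 members, the change from day 0 replicate 1 to day 14 replicate 2 and that from day 0 replicate 2 to irradiated replicate 1, all complete libraries, correlated with Pearson's r = 0.19. With the day 0 replicates exchanged r was 0.17. For the 2 sparse libraries the same 2 pairings gave 0.44 and 0.47. Between replicates the values were 0.03 and -0.08 at day 14 and -0.13 and -0.02 after irradiation. Over members, the sparse libraries of different groups were thus more alike in their changes than the replicates of either group. A member at 0 reads in both sparse libraries has both changes set by its day 0 counts. The part of such members was not tested. Guide sums at position 1 did not show this order. There r was 0.04 and -0.004 for the sparse libraries, 0.54 and 0.11 between day 14 replicates, and 0.03 and 0.24 between irradiated ones. At position 2 the same values were 0.80 and 0.88, 0.38 and 0.43, and 0.03 and -0.21. There nt_35 and nt_40 had 0 reads in both sparse libraries. Members share guides, so these coefficients carry no test.

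Part of a construct's level came with its guides. An additive fit of 1 value per guide at each position accounted for 61.3% and 69.3% of the variance of the members' log2 values in the day 0 replicates, for 47.0% in day 14 replicate 2 and 42.8% in irradiated replicate 1, and for 16.9% and 18.6% in the sparse libraries. Position 2 alone accounted for 35.2% and 37.8% at day 0 and position 1 alone for 18.8% and 22.3%. The fit therefore accounted for most at day 0, and the residual SD rose from 0.98 and 0.72 at day 0 to 2.55 and 2.63 in the sparse libraries. These shares were not adjusted for the number of guides fitted, which is larger at position 2, and no left-out construct was predicted.

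Summed over their partners, the guides kept most of their order of abundance in the complete libraries and less of it in the sparse ones. Spearman's rho of their read shares with those in day 0 replicate 2 was 0.96 and 0.95 at position 1 in day 14 replicate 2 and irradiated replicate 1, and 0.65 and 0.81 in day 14 replicate 1 and irradiated replicate 2. At position 2 it was 0.98 and 0.97 in the complete and 0.83 and 0.89 in the sparse libraries, as a description over 25 and 36 guides. At position 1, nt_21 was the most abundant guide in 5 of 6 libraries: it held 11.7% and 10.3% of member reads at day 0, 11.8% and 10.7% at day 14, and 10.0% and 10.6% after irradiation. In irradiated replicate 1 nt_16 was above it with 10.4%. The most abundant guide at position 1 held between 7.34 and 17.8 times the reads of the least abundant. Position 2 was more uneven, with a ratio of 28.6 and 38.5 at day 0, 86.6 in day 14 replicate 2 and 42.6 in irradiated replicate 1. The most abundant guides there were nt_29, nt_62, nt_48 and nt_50, each of them highest in at least 1 library.

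The least abundant guides were also those with gaps in the grid. Guide nt_35, with 16 partners, had 176 and 107 reads at day 0, 0 and 36 at day 14, and 133 and 0 after irradiation. Guide nt_40, with 17 partners, had 165 and 156 reads at day 0, 0 and 107 at day 14, and 99 and 0 after irradiation. All their constructs were at 0 in both sparse libraries and neither reached the mean summed count of 200 needed for the test of guides. Guide nt_43 was next, with 150 and 259 reads at day 0, 104 and 256 at day 14, and 359 and 84 after irradiation.

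The share of missing constructs differed among guides by their day 0 level. In day 14 replicate 1 it was highest at position 1 for nt_14 (88.2% of 34 constructs) and lowest for nt_2 (40.0% of 35), and at position 2 lowest for nt_48 (28.0% of 25). In irradiated replicate 2 it was highest at position 1 for nt_7 (88.2% of 34) and lowest for nt_22 (38.9% of 36), and at position 2 lowest for nt_62 (32.0% of 25). At position 2 both nt_35 and nt_40 stood at 100%. Spearman's rho between a guide's day 0 level per partner and its share of missing constructs was -0.84 and -0.90 over the 25 guides of position 1 in the sparse libraries and -0.87 and -0.86 over the 36 guides of position 2. The guides of a position share most of their partners, so these are descriptions.

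Already at day 0 the replicates differed by guide, and mostly at position 2. The log2 share of a guide's reads in replicate 1 minus that in replicate 2 ran from -0.47 to 0.28 at position 1 (SD 0.20, 25 guides) and from -1.16 to 0.84 at position 2 (SD 0.50, 36 guides). Guide nt_46 was the lowest, with 453 reads in replicate 1 and 1038 in replicate 2, and nt_34 the highest, with 1349 and 772. At position 2, 8 of 36 guides lay below -0.5 and 6 above 0.5, and at position 1 it was 0 of 25 on either side. From day 0 replicate 2 to day 14 replicate 2, after growth, the SDs were lower at both positions, 0.19 and 0.29. To irradiated replicate 1 they were 0.20 and 0.34.

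Into the sparse libraries the guides of position 1 had an SD of 0.76 at day 14 and 0.63 after irradiation, against day 0 replicate 2, and those of position 2 of 1.48 and 1.51. The latter rest on nt_35 and nt_40, whose values at 0 reads are set by the prior count: over the other 34 guides the SDs were 0.79 and 0.81. The guides that moved most were not the same at position 1. Guide nt_4 had 1748 and 2340 reads at day 0, 341 and 1552 at day 14, and 1724 and 2252 after irradiation, so it was low in day 14 replicate 1 only. Guide nt_20 had 803 and 932 reads at day 0, 617 and 710 at day 14, and 637 and 309 after irradiation, so it was low in irradiated replicate 2 only. At position 2, nt_51 was high in both sparse libraries, with 993 and 1319 reads at day 0, 2754 and 911 at day 14, and 868 and 3705 after irradiation.

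Guides were tested on their counts summed over all non-targeting partners, together with the gene guides of the same table, which are single knockouts. All 25 non-targeting guides of position 1 and 34 of 36 at position 2 had a mean summed count of at least 200 and entered the test of 1833 guides. For day 14 against day 0 edgeR called 0 of these 59 guides, beside 0% of all guides, with 0 of the 59 and 14 of the 1833 at an unadjusted p under 0.05. For irradiated day 15 against day 0 it called 0, beside 0% of all, with 0 and 13 under 0.05, and for irradiated day 15 against day 14 it called 0, beside 0% of all, with 0 and 12 under 0.05. DESeq2 called 0 guides in each comparison, with 0 of the 59 under 0.05. The coefficient of variation was 0.35 and the median 95% half-width of a guide's log2 change 0.97, 0.96 and 0.96 in the order given.

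The guides of smallest p at day 14 against day 0 were nt_5 and nt_9 at position 1 and nt_48 and nt_55 at position 2. Guide nt_5 had 1059 and 1030 reads at day 0, 1704 and 953 at day 14, and 948 and 1949 after irradiation, a log2 change of 0.82 at day 14 (SE 0.42; edgeR adjusted p = 0.985). Guide nt_9 had 4343 and 3677 reads at day 0, 1732 and 2423 at day 14, and 3240 and 3880 after irradiation, with a change of -0.48 (SE 0.25). Guide nt_5 was high in both sparse libraries, and nt_9 was below both day 0 libraries in both day 14 libraries. At position 2, nt_48 had 1971 and 2776 reads at day 0, 3564 and 2025 at day 14, and 2331 and 4430 after irradiation, with a change of 0.71 (SE 0.35). Guide nt_55 had 3663 and 3373 reads at day 0, 1814 and 1927 at day 14, and 2857 and 3286 after irradiation, with a change of -0.44 (SE 0.23). Its replicates were close to each other in each group, and both day 14 libraries lay below both day 0 libraries.

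At irradiated day 15 against day 0, guide nt_11 at position 1 had 1642 and 1468 reads at day 0, 1207 and 899 at day 14, and 971 and 806 after irradiation, a log2 change of -0.67 (SE 0.39; edgeR adjusted p = 0.998). The other guides by the same rule were nt_5 at 0.55 (SE 0.42), nt_48 at 0.60 (SE 0.35) and nt_51 at 1.02 (SE 0.64), all higher mainly through irradiated replicate 2. For irradiated day 15 against day 14, guide nt_49 at position 2 had 517 and 870 reads at day 0, 1153 and 535 at day 14, and 421 and 548 after irradiation, with a change of -1.16 (SE 0.57; edgeR adjusted p = 0.995). Guide nt_6 at position 1 had 1634 and 1549 reads at day 0, 669 and 999 at day 14, and 1160 and 2267 after irradiation, with a change of 0.65 (SE 0.39), and nt_9 and nt_55 stood at 0.42 (SE 0.25) and 0.36 (SE 0.23). None of these intervals excluded 0.

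Changes of the non-targeting guides covered most of what the gene guides did. For day 14 against day 0 the SD of the log2 change was 0.39 over the 25 non-targeting guides of position 1 and 0.34 over the 895 gene guides there, and 0.52 over 34 and 0.47 over 879 at position 2. Of the gene guides, 871 of 895 (97.3%) at position 1 and 839 of 879 (95.4%) at position 2 lay within the range of the non-targeting guides for that comparison. For irradiated day 15 against day 0 it was 93.9% and 98.2%, and for irradiated day 15 against day 14 97.8% and 95.2%. The non-targeting guides with the lowest and the highest change were at -0.75 and 0.82 at position 1 and at -0.94 and 1.14 at position 2 for day 14 against day 0. Between irradiated day 15 and day 14 they were at -0.79 and 0.82 and at -1.16 and 0.73.

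The summed members were also followed over time. Relative to the mean of day 0, the log2 share of the summed members was -0.01 and 0.01 in the day 0 replicates, -0.18 and 0.01 at day 14, and 0.02 and -0.05 after irradiation. Day 14 replicate 1 stood apart from the other 5. The change was -0.09 for day 14 against day 0, -0.02 for irradiated day 15 against day 0 and 0.07 for irradiated day 15 against day 14. Exact permutation tests over libraries, two-sided, gave p = 0.667, 1 and 0.667, and with 2 libraries per group the smallest p they can give is 0.333. Each of these changes took the other sign when a sparse library was left out: without day 14 replicate 1 the first was 0.01 and the third -0.02, and without irradiated replicate 2 the second was 0.02. Those against day 0 also depended on the scaling: with DESeq2's size factors they were -0.21 and -0.11, and without the 10 highest members of each library -0.23 and -0.17. With TMM they were -0.14 and -0.057.

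Sums of single knockouts were also set against this sum. Single knockouts here pair 1 gene guide with 1 non-targeting guide, in either order, so they share guides with the members. Values are log2 ratios to the summed members minus the day 0 mean of that ratio. For all guide pairs of 2 genes the ratio was 0.01 and -0.01 at day 0. It was 0.19 and -0.01 at day 14, and -0.02 and 0.05 after irradiation. For Trp53, the gene of p53, which these cells lack, the ratio was -0.23 and 0.23 at day 0, 0.04 and 0.27 at day 14, and 0.30 and 0.45 after irradiation. Its day 0 replicates were further apart than those of the other sums, and day 14 lay partly within them, while both irradiated libraries lay above. Its log2 share of all reads, relative to the day 0 mean, was -0.24 and 0.24 at day 0. It was -0.14 and 0.27 at day 14, and 0.32 and 0.40 after irradiation. The exact permutation p of this share was 0.667 for day 14 and 0.333, the smallest possible, for irradiated day 15, each against day 0.

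Genes of meiosis served as another list without a known role in dividing somatic cells. Of 25 such genes, 10 were in the library, among them Dmc1, the meiotic strand exchange protein, Spo11, which makes meiotic breaks, and Sycp1 and Sycp3 of the synaptonemal complex. Their summed ratio to the members was -0.09 and 0.09 at day 0, 0.20 and 0.11 at day 14, and 0.09 and 0.25 after irradiation. The 0.20 of day 14 replicate 1 was close to the 0.19 of all guide pairs of 2 genes there. In day 14 replicate 2, 8 of 10 genes lay above 0 with a median of 0.11 and a range from -0.05 (Rad21l) to 0.31 (Msh4). In irradiated replicate 1, 8 of 10 lay above 0 with a median of 0.05. In day 0 replicate 2 all 10 lay above 0, by up to 0.13, and in day 0 replicate 1 all 10 lay below. In the sparse libraries single genes moved further in both directions, Sycp1 to 0.84 and 1.06, Spata22 to -0.25 and -0.19, and Sycp3 to -0.26 in irradiated replicate 2.

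Core replication genes were the contrasting list, since their products copy DNA in each cell cycle. Of 31 listed genes, 19 were in the library, and their summed ratio to the members was 0.04 and -0.04 at day 0, 0.07 and -0.04 at day 14, and -0.07 and -0.21 after irradiation. At day 0, 15 of 19 genes lay above 0 in replicate 1 and 4 of 19 in replicate 2, with medians of 0.04 and -0.04. In day 14 replicate 2, 6 of 19 genes lay above 0, with a median of -0.08. In irradiated replicate 1 it was 7 of 19, with a median of -0.05, so neither count was below that of day 0 replicate 2. The lowest in both was Mcm6, a subunit of the replicative helicase, at -0.27 and -0.64. Next to Mcm6, Pola1, which belongs to the polymerase that extends primers, stood at -0.24 and -0.42 in these libraries. In the sparse libraries Mcm6 stood at 0.40 at day 14, with the other sign than in its replicate, and at -0.34 after irradiation, and Pola1 at -0.70 and -0.83. In day 14 replicate 1, by contrast, 11 of 19 genes lay above 0, with a median of 0.11, and the summed members themselves were low there by 0.18. A ratio to the non-targeting sum carries the position of that sum in each library. The list's log2 share of all reads, relative to its day 0 mean, was 0.03 and -0.03 at day 0. It was -0.11 and -0.04 at day 14, and -0.06 and -0.26 after irradiation. The exact permutation p of this share, not of the ratio, was 0.333 for both day 14 and irradiated day 15 against day 0. That is the smallest possible.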

How the data were processed

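The authors deposited raw read counts of each guide pair in 6 libraries, made from genomic DNA amplified over the guide locus, per the labels' protocols. HISAT2 2.1.0 and hg38 appear in the submitters' processing notes. How reads were assigned to guides is not given in those sources. A pair not listed for a library was set to 0, and 2 columns that match no sample were not used here.

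Libraries were scaled by total count. Constructs with a mean of at least 10 reads over the 6 libraries, and guides with a mean summed count of at least 200, were tested with edgeR 4.0.16 (quasi-likelihood, two-sided, all 6 libraries, group as the only term, Benjamini-Hochberg over the whole table, threshold 0.05). limma 3.58.1 and DESeq2 1.42.0, in R 4.3.3, were alternatives, as were TMM and DESeq2's size factors, other filters, prior counts of 0.5 and 10, a replicate block and leaving out libraries. Descriptions used log2 CPM with a prior count of 2. The fits were also run on simulated counts, but with less spread than these data have. That run does not show how the fits perform here.

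Same-numbered libraries were not taken as pairs, because the labels give no shared source for a number. The members and lists were chosen with earlier results of these data known. For each comparison the text names the 2 constructs of smallest p in each direction and the 2 guides of smallest p at each position, the highest construct of each library, the 3 of highest day 0 mean, and the guides with most and fewest missing constructs in the sparse libraries. Guides nt_4, nt_20, nt_34, nt_43, nt_46 and nt_51, those named for abundance, and constructs nt_16;nt_60 and nt_16;nt_62 were chosen after their values were seen.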

Additional observations from a re-analysis of the deposited data

How the results depend on the processing

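Of 170 alternative values for 21 results, 156 stayed within the spread between replicates (for counts, within 1.5 times) and 14 did not. This spread includes the sparse libraries, so staying within it is a weak criterion. The median over members at day 14 against day 0, -1.80, counted as within it at both -0.02 and -3.66. Others of the 156 were counts of 0 members called, where the main fit called 0 of all 766617 constructs. With fewer than 5 reads counted as missing, 9.11% of members were missing in day 0 replicate 2. The summed change at day 14 against day 0 was -0.21 with DESeq2's size factors and -0.23 without the 10 highest members of each library. For irradiated day 15 against day 0 it was -0.057 with TMM, -0.11 with DESeq2's size factors and -0.17 without those members. The cause was not tested. Leaving out each library in turn gave summed changes from -0.18 to 0.01, from -0.05 to 0.02 and from -0.02 to 0.17 in the order of the comparisons, medians over members from -3.66 to -0.02, from -3.22 to -0.10 and from -1.53 to 1.91, and SDs from 1.26 to 2.75, from 1.43 to 2.80 and from 1.66 to 2.37. Members called then ran from 0 to 0, from 0 to 2 and from 0 to 2, and guides from 0 to 1, from 0 to 0 and from 0 to 0. A group left with 1 library is assumed to vary like the others.

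Over all constructs the edgeR count of 0 became 822, 5883 and 2770 without irradiated replicate 1, at most 5 without any other library, and 0, 21 and 3 without both sparse libraries. limma-trend called 13, 10 and 9. Over all guides the count of 0 became 28 and 14 without day 14 replicate 2, for the comparisons with day 14. With a replicate block 1, 6 and 5 constructs were called, 0 of them members, and 0 guides. The summed changes stayed at -0.09, -0.02 and 0.07 with the block, which cannot change them because each group holds both replicate numbers. They count among the values that stayed within the spread, but are not a check. Deviations of same-numbered libraries, over constructs, correlated at 0.10 (day 0 with day 14), -0.11 (day 0 with irradiated) and -0.56 (day 14 with irradiated), so the numbers were not taken as pairs. With crossed numbers, a pairing chosen after seeing the data, 20 constructs and 1 guide were called for irradiated day 15 against day 14, 0 of them non-targeting. Low counts limit single members most: those below a mean of 10 reads were not tested.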
